A study of Mus musculus with 61 samples.

Results

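Synaptic vesicle release genes were followed through the fractionated adult mouse brain. The set held every gene on the array whose symbol was Syt, Cplx, Stx, Vamp, Snap or Rims with a number, or Syn1, Syn2 or Syn3, after each probe's RefSeq identifier had been turned into a symbol, and each gene was read from its probe with the highest mean signal. This gave 53 of the 16358 genes named on the array, and 52 of them were well above background on at least 1 array. Stx19 was the exception, and Stx11, Syt5, Vamp9 and Vamp7-ps were not found among the named probes. The rule used symbols alone and no measured value. It took in SNAREs of the endosome, Golgi apparatus and endoplasmic reticulum as well as Snap91, a clathrin adaptor that shares only its symbol with SNAP proteins.

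The samples were 61 serial fractions, each 1 mm wide, from the brains of 6 male C57BL/6J mice aged 8 weeks, with no treatment and no genetic change. Each mouse gave 1 series. C (13 fractions) and Co (16) were cut coronally from posterior to anterior, H (6) and Ho (7) horizontally from dorsal to ventral, and S (9) and So (10) sagittally, the second of each plane being slightly oblique to the first. The labels count the S fractions from 2, and they are numbered here from 1 as the study's methods do. Every fraction was hybridised once to a 1-colour Agilent whole mouse genome array, so a mouse contributed no replicate of its own, and the fractions of both mice of a plane that the study had paired by their similarity served as the replicates (28 pairs, 56 arrays). Each fraction mixes many brain areas and cell types, and fewer cells of a type cannot be told apart from less RNA per cell.

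A synaptic vesicle fuses when a vesicle SNARE (a synaptobrevin, Vamp1 or Vamp2) zips up with SNAREs of the plasma membrane (a syntaxin such as Stx1a, and Snap25). Synaptotagmins sense the calcium that triggers fusion, with Syt1, Syt2 and Syt9 as the fast sensors, and complexins clamp and promote the assembled complex. RIM proteins hold vesicles at the active zone, and synapsins tether the reserve of vesicles. Most of these roles are shared by several paralogues, and Syt2 and Vamp1 are well known in hindbrain and spinal cord neurons, Syt1 and Vamp2 in the forebrain.

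Values below are relative signals, the processed signal of a probe divided by the 75th percentile of its array, and differences are log2 of the ratio of 2 relative signals. Probes differ in how well they bind, so the level of a gene was never set against that of another gene. The 75th percentile itself ranged from 737 to 1919 intensity units over the arrays (median 1205), and 57.9 to 73.1% of probes were well above background. Known regional genes placed the zones used here. All 8 cerebellar markers were higher in the caudal zone (pairs 1 to 4 of the coronal series, 8 arrays) than in the cerebral zone (pairs 6 to 11, 12 arrays), with a summed relative signal of 55.8 to 273 against 20.8 to 30.5. All 7 olfactory bulb markers were higher in the olfactory zone (pairs 12 and 13, 4 arrays), at 91.1 to 121 against 2.03 to 8.77. Of 7 hypothalamic markers, 6 were higher in the ventral zone (4 arrays, 39.5 to 78.4) than in the dorsal zone (4 arrays, 0.351 to 0.436).

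The sequence before the gene start is shown for Syt2 and Vamp1, which were higher in the caudal than in the cerebral zone. It is also shown for Syt1 and Stx1a, which were lower there. These genes did not keep together in every comparison. Ventrally Syt2 was lower and Vamp1 higher, and in the olfactory zone Stx1a was lower while Syt1 did not pass. The sequences are from RefSeq on GRCm38.p6, up to 250 bases ending at the base before the gene, 5′ to 3′ on the gene's strand. Capitals mark the GC box (GGGCGG, or CCGCCC on the other strand).

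Syt1, chr10:109010981-109011225, minus strand: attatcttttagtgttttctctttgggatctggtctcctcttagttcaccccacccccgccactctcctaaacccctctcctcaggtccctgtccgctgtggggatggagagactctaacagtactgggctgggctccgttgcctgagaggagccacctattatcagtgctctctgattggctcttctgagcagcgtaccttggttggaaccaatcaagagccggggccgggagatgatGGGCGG

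Syt2, chr1:134646362-134646533, plus strand: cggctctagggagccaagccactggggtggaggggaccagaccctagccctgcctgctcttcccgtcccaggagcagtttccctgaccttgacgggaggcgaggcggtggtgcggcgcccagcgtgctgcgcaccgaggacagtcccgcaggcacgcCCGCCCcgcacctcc

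Vamp1, chr6:125215331-125215580, plus strand: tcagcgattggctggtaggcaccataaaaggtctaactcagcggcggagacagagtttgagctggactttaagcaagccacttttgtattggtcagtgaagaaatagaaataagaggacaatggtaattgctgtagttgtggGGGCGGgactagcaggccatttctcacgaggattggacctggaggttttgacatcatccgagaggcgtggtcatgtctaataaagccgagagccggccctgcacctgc

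Stx1a, chr5:135023232-135023481, plus strand: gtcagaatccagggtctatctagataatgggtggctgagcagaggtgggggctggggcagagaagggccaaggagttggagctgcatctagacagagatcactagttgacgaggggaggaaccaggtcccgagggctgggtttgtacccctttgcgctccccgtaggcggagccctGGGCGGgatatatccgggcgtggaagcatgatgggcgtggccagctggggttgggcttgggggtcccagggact

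Each of these 4 windows held 1 GC box, and none held a cAMP response element (TGACGTCA) or a TATA box (TATAAA), searched on both strands. Over the 32851 windows of 250 bases in the RefSeq table, 32.7% held a GC box, 1.55% a cAMP response element and 12.4% a TATA box. Windows were listed for 39 of the 53 genes, and 27 of the 39 held a GC box, 1 a cAMP response element (Syn1) and 2 a TATA box (Stx2 and Stx3). A gene with more than 1 window was counted if any of them held the motif. These counts of genes therefore cannot be set against the shares of single windows. GC content was 55.5% for Syt1, 72.1% for Syt2, 50.4% for Vamp1 and 62.0% for Stx1a, against a median of 52.4% over all windows. These are matches of letters, not measured binding sites.

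Signal varied over the 28 pairs for 37 of the 52 genes (71.2%) by limma's moderated F test at an adjusted p under 0.05, and for 61.2% of all detected probes. Of the 52 genes, 46 were well above background on every array, against 22323 of the 36573 detected probes. Shares of genes and of probes, here and in the comparisons below, therefore differ in brightness. No share was computed over probes of like signal. The strongest variation was that of Stx1a (F = 118), Cplx3 (F = 58.0) and Syt2 (F = 48.5). All 3 fast calcium sensors and all 3 synapsins varied, as did 8 of 16 SNAREs grouped with inner membranes, while only Rims4 passed among the 4 RIM genes. Pairs of different planes come from different mice, so this F also takes in differences between mice and scan days. Syn1, for example, had median relative signals of 23.5 in S and 17.8 in So against 5.66 in C and 6.64 in Co. With its brightest probe and all arrays it passed in none of the 4 comparisons of zones below. From the lowest to the highest of the 61 fractions, Cplx3 spanned 78.9-fold, Stx1a 63.7-fold and Syt10 42.4-fold. The span of Syt10 ran from C9 to So1, fractions of different mice, and Syt10 did not pass the F test over the pairs (F = 1.13, adjusted p = 0.438). Within a series Syt10 spanned 15.8-fold in C, with its peak in C13, and 1.17- to 3.26-fold in the others. Syt2 ran from 0.913 in C2 to 0.00935 in Co15, but it was not well above background in Co15 or C13 and no fold is given. Cplx4 (50.1-fold) and Syt8 (33.2-fold) also spanned widely but were well above background on only 5 and 2 arrays. The narrowest spans were those of Stx7 (1.37-fold), Stx5a (1.64-fold), Stx12 (1.66-fold), Stx2 (1.75-fold), Cplx1 (1.77-fold) and Snap47 (1.86-fold), of which Stx7, Stx5a and Stx12 act mainly in endosomes and the Golgi apparatus. For the 46 genes well above background on every array the median span was 1.66 on the log2 scale, and it was 1.43 for the 22323 probes of that kind. Over all 52 genes it was 1.78, below the 2.12 of all 36573 detected probes.

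**Figure D1:**
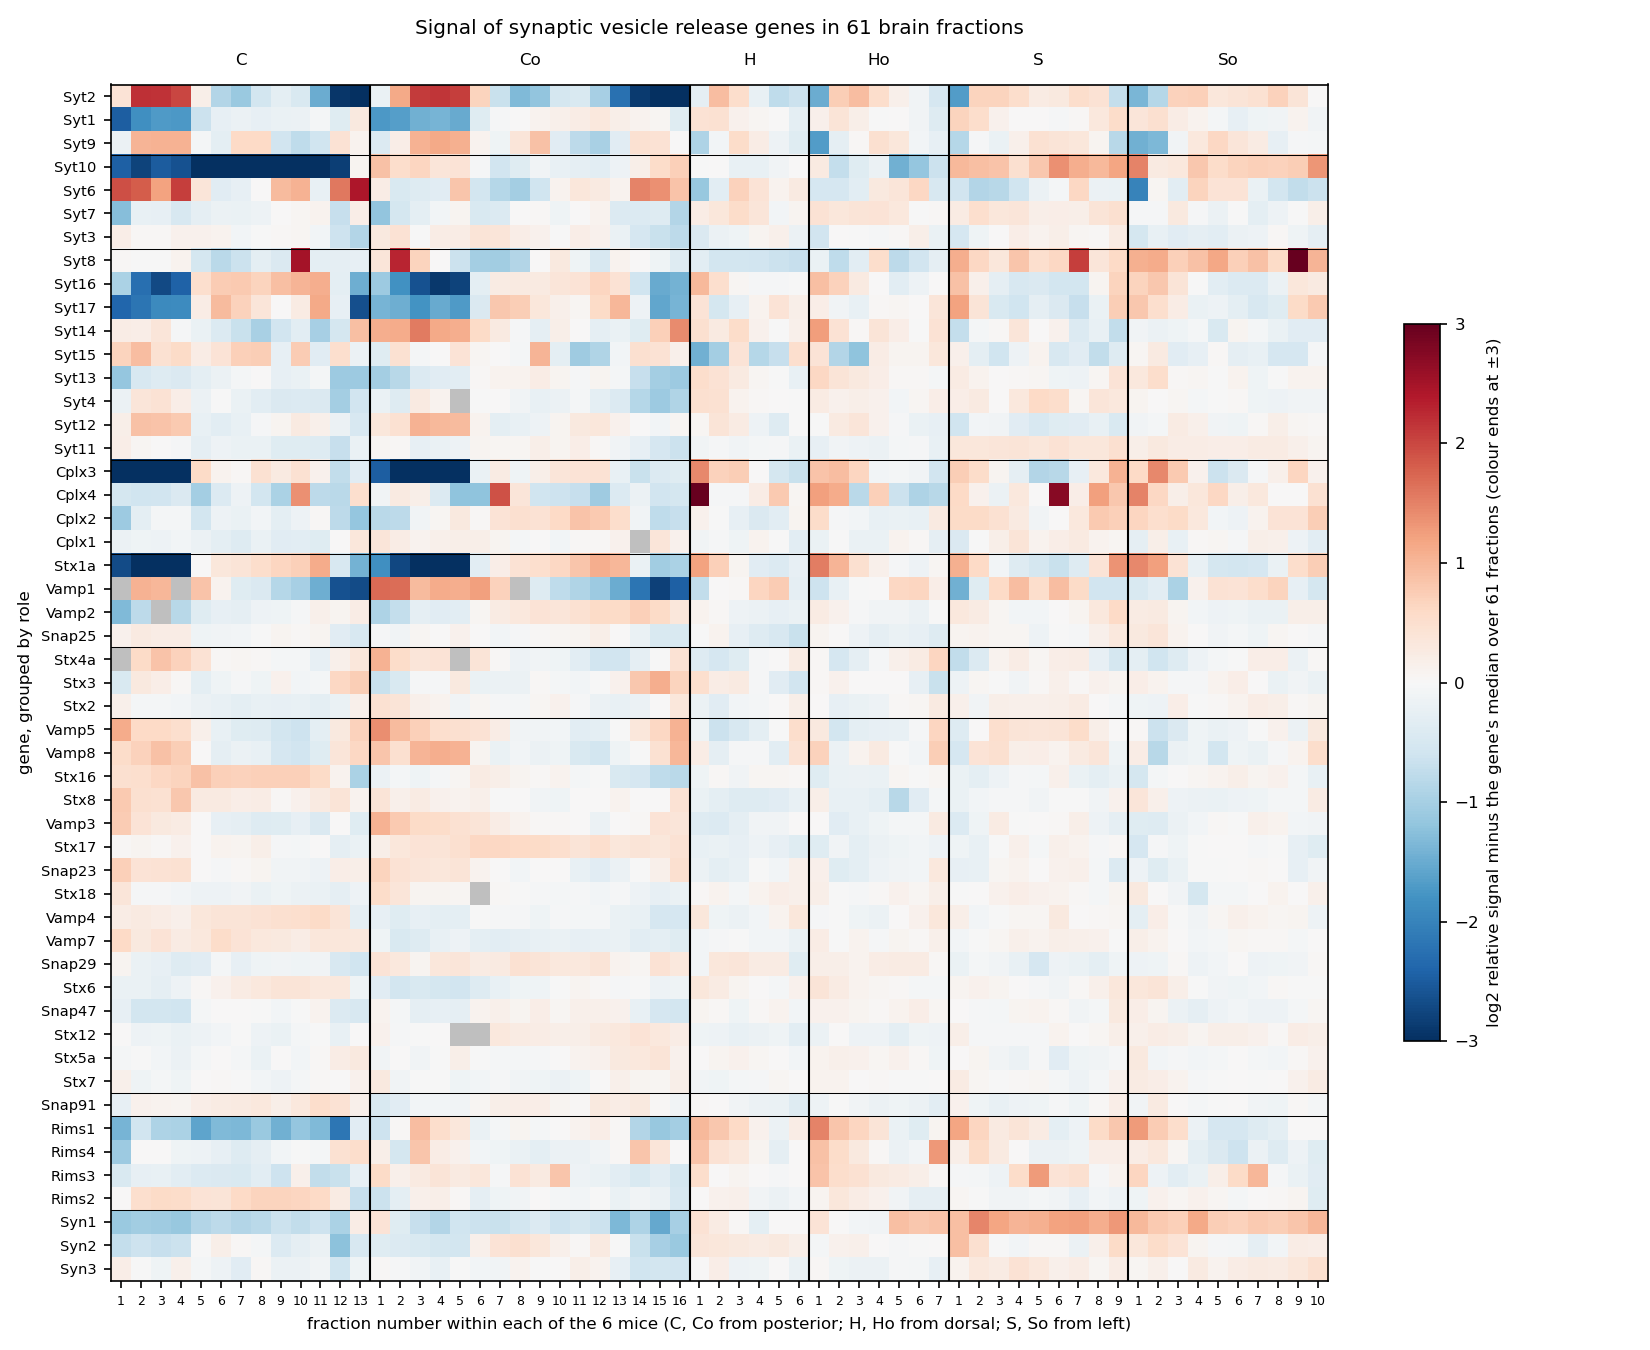
Log2 relative signal of the detected genes (rows, grouped by role) in the 61 fractions (columns, by mouse), minus the median of each gene, with values past 3 shown at the end of the colour scale and left-out values in grey. Syt1, Stx1a, Cplx3, Syt16 and Syt17 are blue in the posterior coronal fractions where Syt2 and Vamp1 are red, and Syt10 is darkest in C1 to C12.

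From the caudal to the cerebral zone, the fast calcium sensors Syt1 and Syt2 ran in opposite directions. Syt1, the main calcium sensor of forebrain synapses, had relative signals of 8.07, 12.5, 13.7 and 13.4 in C1 to C4 and of 14.2, 16.4, 17.1 and 15.6 in Co2 to Co5. It then stepped up to 28.6 in C5 and 34.9 in Co6, and in the cerebral zone it lay between 37.7 and 55.8 (median 43.1). Syt2, the sensor of many fast hindbrain synapses, read 0.266, 0.913, 0.889 and 0.804 in C1 to C4 and 0.441, 0.855, 0.883 and 0.842 in Co2 to Co5. In the cerebral zone Syt2 lay between 0.0707 and 0.163 (median 0.117), and no caudal array fell within that range for either gene. By limma's moderated test, with p adjusted by Benjamini-Hochberg over all probes and ratios, the caudal minus cerebral difference was -1.69 (SE 0.10, adjusted p = 5.14e-15) for Syt1 and 2.61 (SE 0.13, adjusted p = 3.6e-17) for Syt2. The third fast sensor, Syt9, read 0.621 to 1.54 caudally (median 1.46) and 0.358 to 1.31 in the cerebral zone (median 0.568). Its ranges overlapped, and its difference was 0.96 (SE 0.10, adjusted p = 2.68e-09). Within the cerebral zone Syt9 was highest in pairs 7 and 8, at 1.08 and 1.07 in C7 and C8 and 0.909 and 1.31 in Co8 and Co9.

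Among the synaptic SNAREs the vesicle partners also ran in opposite directions. Vamp1 had relative signals of 31.1 to 51.0 in the 6 caudal arrays that gave a value (C1 and C4 were outliers on the array and were left out) and of 5.84 to 25.9 in 11 cerebral arrays. Vamp2 read 8.92 to 18.4 in 7 caudal arrays, without C3, and 18.6 to 33.5 in the cerebral zone. Neither gene's zones overlapped, Vamp1 being the higher caudally and Vamp2 the higher in the cerebrum. The differences were 1.77 (SE 0.14, adjusted p = 2.6e-11) for Vamp1 and -0.76 (SE 0.13, adjusted p = 7.79e-06) for Vamp2. Stx1a, a plasma membrane partner of both, fell from 5.33 to 10.1 in the cerebral zone to 0.731, 0.265, 0.212 and 0.258 in C1 to C4 and 0.708, 0.279, 0.406 and 0.296 in Co2 to Co5. This was a difference of -4.33 (SE 0.09, adjusted p = 1.33e-26), 20.2-fold. Snap25, the plasma membrane partner that binds both, differed by 0.10 (adjusted p = 0.16), lying between 49.4 and 64.1 caudally and between 50.1 and 60.4 in the cerebral zone.

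Complexin 3, which is best known from ribbon synapses and is also made in cortex, had the widest caudal to cerebral gap together with Stx1a. Cplx3 read 0.0309 to 0.079 caudally and 0.818 to 1.22 in the cerebral zone, a difference of -4.34 (adjusted p = 3.09e-22). Its second probe, which is far dimmer, gave -0.60 (adjusted p = 1.25e-05), so the direction held with both probes and the size did not. Cplx2 was lower caudally by 0.48 on the log2 scale (adjusted p = 0.0035), and Cplx1 differed by 0.18 (adjusted p = 0.0979, and 0.0156 with the mouse as a block). The synaptotagmins with little or no calcium binding split 3 against 3. Syt16 (-2.93), Syt17 (-2.36) and Syt13 (-0.53) were lower caudally, and Syt14 (1.05), Syt12 (0.77) and Syt4 (0.35) were higher. Among the calcium-binding synaptotagmins outside the fast sensors, Syt6 was higher (0.89, adjusted p = 0.016, no longer passing without any of C1 to C4) and Syt7 lower (-0.32, adjusted p = 0.00878, and 0.0585 without C1). The 3 probes of Syt16 gave -2.72 to -2.93 and the 5 probes of Syt1 gave -1.62 to -1.82, whereas Stx1a, Syt2 and Vamp1 had 1 probe each. The second probe of Syt13 gave -1.45 (adjusted p = 5.6e-15), the other 3 of Cplx2 gave -0.66 to -0.89, and the second of Syt7 gave -0.11 (adjusted p = 0.592). The second probe of Syt14, above background on 3 arrays, gave -0.23 (adjusted p = 0.613). Syn2, a vesicle tether, was lower by 0.66, and Syn1 differed by -0.20 (adjusted p = 0.348) with this probe but by -1.01 (adjusted p = 6.92e-13) with its second.

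Of the 16 SNAREs grouped with the endosome, Golgi apparatus and endoplasmic reticulum, 6 were higher caudally, 2 were lower and 8 did not pass, with a median of -0.02. The group also took in Snap23, although its counterpart Snap25 is a SNARE of the plasma membrane. Vamp8, an endosomal and granule synaptobrevin, differed by 1.12, Vamp5 by 0.94, Vamp3 (cellubrevin) by 0.66 and Snap23, the widely expressed counterpart of Snap25, by 0.52, while Stx6 and Snap47 were lower by 0.48 and 0.42. Stx4a, a plasma membrane syntaxin of non-neuronal secretion, was higher by 0.71, and by 0.34 with its second probe. Over all 52 genes 15 were higher and 13 lower (28 of 52, 53.8%), where 52.5% of all detected probes passed, 31.4% higher and 21.0% lower. The share was thus close to the background, and the median difference was 0.04 over the 52 genes and 0.14 over all probes. With each array scaled to its median in place of its 75th percentile, the median of all probes was 0.02 and the split became 12 higher and 16 lower, with no called gene changing sign. In 15 genes (28.8%) the caudal and cerebral arrays did not overlap, against 15.9% of all detected probes, a larger part of which was near background. Astrocyte markers (7 of 8 higher, sum 307 to 351 against 149 to 192), endothelial markers (7 of 7 higher, sum 23.7 to 27.8 against 19.9 to 23.7) and oligodendrocyte markers (7 of 7 higher, sum 276 to 444 against 147 to 260) moved the same way as Vamp3, Vamp5, Vamp8, Snap23 and Stx4a, and their part in these differences was not tested. Cortical markers (7 of 7 lower, sum 5.10 to 12.3 against 8.50 to 18.0), striatal markers (7 of 7, 2.53 to 3.89 against 3.69 to 44.2) and microglial markers (6 of 6, 14.5 to 30.4 against 26.3 to 33.1) moved the way of the lower genes, and their part was not tested either.

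**Figure D2:**
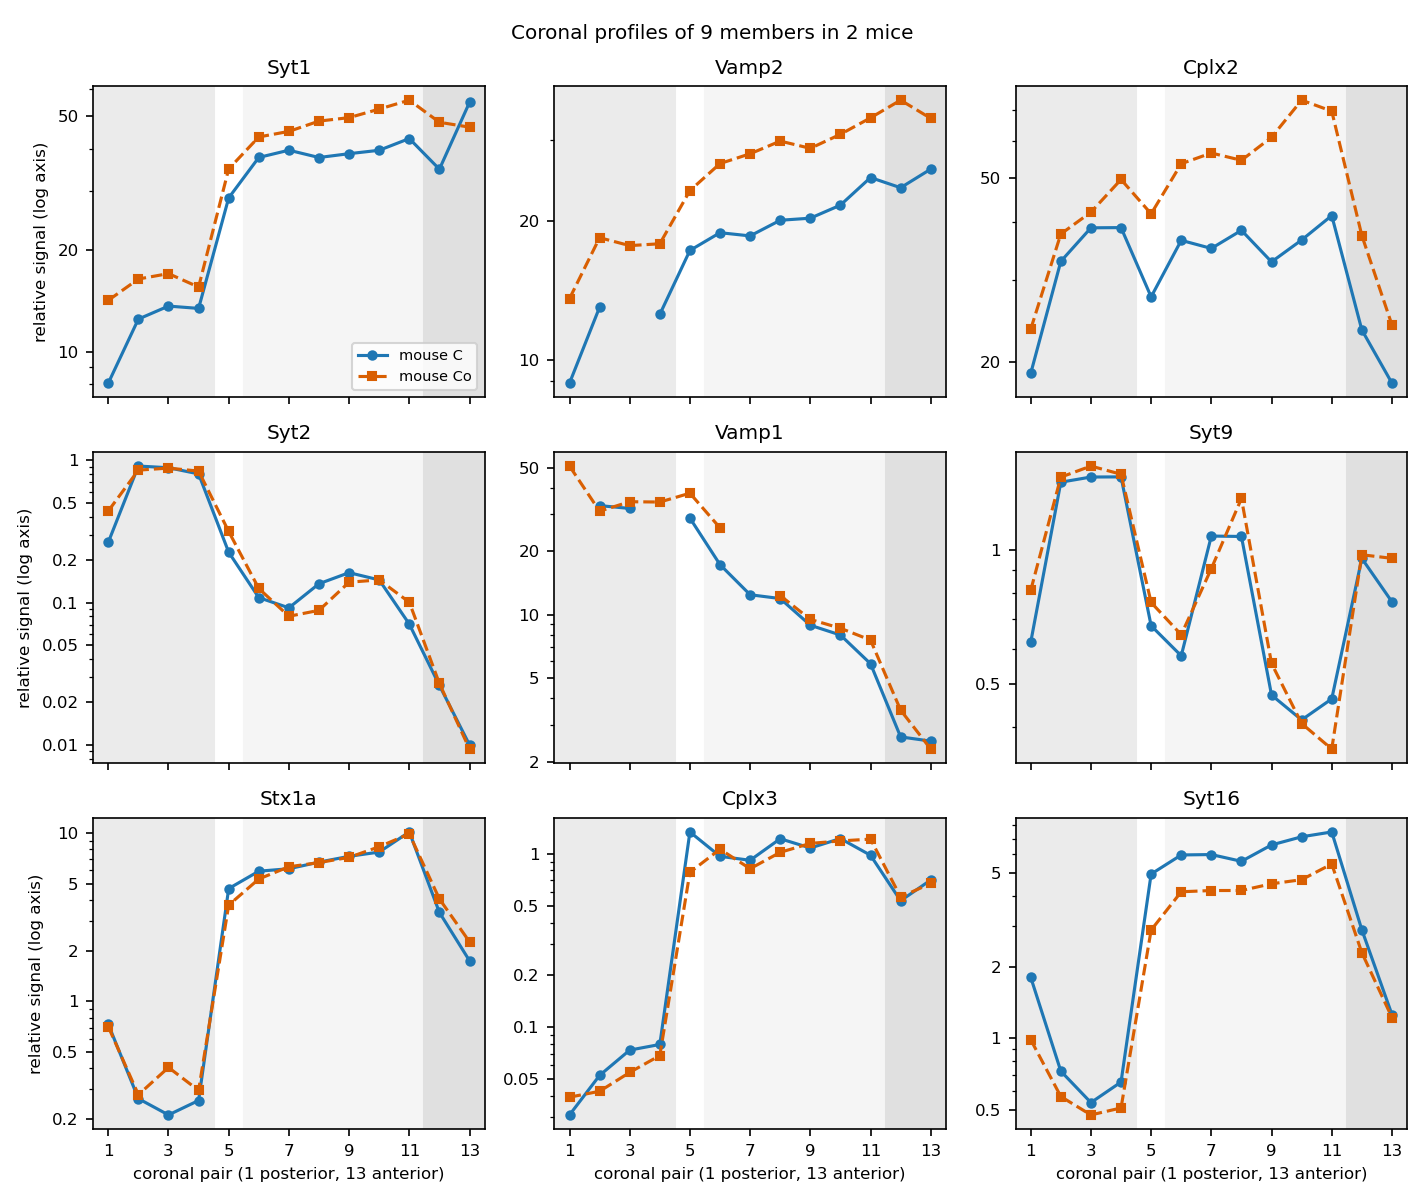
Relative signal (log axis) of 9 genes along the 13 coronal pairs from posterior to anterior, in mouse C (circles) and mouse Co (squares), with the caudal, cerebral and olfactory zones shaded and gaps at left-out values. Syt1, Stx1a, Cplx3 and Syt16 step up between pairs 4 and 5 in both mice, and Syt2 and Vamp1 are lowest in pairs 12 and 13, after their highest values in the caudal zone.

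At the anterior end the same genes did not simply continue their course. Syt2 read 0.0262 in C12, 0.01 in C13, 0.0270 in Co14 and 0.00935 in Co15, of which 2 arrays were well above background, and it was lower than in the cerebral zone by 2.81 (SE 0.16, adjusted p = 9.34e-15). Vamp1 read 2.62, 2.50, 3.52 and 2.30 in these 4 arrays, lower by 2.01 (SE 0.16, adjusted p = 3.82e-11). Both were thus below every cerebral array at this end and above every cerebral array at the other. Syt1 (34.8 to 54.9) and Vamp2 (23.6 to 36.6) kept within or close to their cerebral ranges, with differences of 0.05 (adjusted p = 0.812) and 0.25 (adjusted p = 0.194). Vamp2, which differed strongly between the mice, passed with the mouse as a block (0.25, adjusted p = 1.6e-05), at 0.26 in C and 0.24 in Co. Stx1a, at 3.37, 1.74, 4.06 and 2.26, was lower by 1.40 (adjusted p = 1.83e-11) and Syt16 and Syt17 by 1.59 and 1.65, all without overlap.

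Cplx2, the abundant complexin of the cortex, was lower in the olfactory zone by 0.93, as was Syn2 (0.93), and Cplx3 by 0.79. Cplx1 read 38.4, 48.2 and 49.1 in 3 arrays, without Co14, and 29.1 to 40.3 in the cerebral zone, a difference of 0.34 (adjusted p = 0.0397). The synaptotagmins Syt13 (-0.96), Syt3 (-0.76) and Syt4 (-0.67) were also lower, as was the syntaxin Stx16 (-0.90). Higher in the olfactory zone were Syt6 (1.76, adjusted p = 0.000433), read at 0.0919, 0.164, 0.0856 and 0.0798 against 0.0152 to 0.0634, and Stx3 (0.88, adjusted p = 5.62e-10), a syntaxin of apical membranes and ribbon synapses, read at 0.423, 0.457, 0.483 and 0.583 against 0.241 to 0.299. Of the other Stx3 probes, the brighter ones gave 0.82 and 0.53, but the dimmest gave -1.46 (adjusted p = 3.07e-11), so the direction depended on the probe. Rims4, an active zone protein, was higher by 0.72, Vamp5 by 0.74, Vamp8 by 0.67 and Syt9 by 0.53. In all, 10 genes were higher and 17 lower (51.9%), against 38.5% of all probes (18.3% higher, 20.2% lower), with a median of -0.11 over the 52 genes and 0.01 over all probes. The arrays of the zones did not overlap for 18 genes (34.6%), against 17.3% of probes. C13 was scanned on another day than the rest of its series, and without it Cplx1 (adjusted p = 0.0777), Rims2 (0.226) and Stx7 (0.146) no longer passed while Syn1 (-0.58, adjusted p = 0.0428), Syt7 (-0.40, adjusted p = 0.0305) and Vamp3 (0.36, adjusted p = 0.012) did. All 7 oligodendrocyte markers were lower in the olfactory zone (sum 103 to 155 against 147 to 260). Cortical markers (6 of 7 lower, sum 5.06 to 7.80 against 8.50 to 18.0), striatal markers (7 of 7, 2.62 to 4.08 against 3.69 to 44.2) and choroid plexus markers (6 of 6, 1.13 to 1.39 against 0.894 to 16.6) were lower too, and the part of these in the lower values was not tested.

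From dorsal to ventral, Cplx3, Stx1a, Syt16 and Syt1, which were lower caudally, were lower ventrally, while Syt17 (0.35, adjusted p = 0.36), Cplx2 (-0.05, adjusted p = 0.971) and Syn2 (-0.13, adjusted p = 0.725) did not pass. Vamp2 differed by -0.21 (adjusted p = 0.572, and 0.00313 with the mouse as a block). Cplx3 read 2.44 and 1.44 in H1 and H2 and 1.71 and 1.41 in Ho2 and Ho3, against 0.622, 0.568, 0.833 and 0.596 in the ventral arrays, a difference of -1.40 (SE 0.21, adjusted p = 1.22e-05). Stx1a read 10.8, 7.72, 9.55 and 6.48 dorsally and 3.53, 3.93, 4.20 and 4.90 ventrally, a difference of -1.05 (SE 0.14, adjusted p = 2.6e-06). Neither gene's zones overlapped. Syt2, in contrast to its coronal course, was lower ventrally with these genes (-1.08, adjusted p = 0.000197), at 0.118, 0.128, 0.187 and 0.140 against 0.166, 0.379, 0.334 and 0.378. All of its ventral arrays but 1 were below the lowest dorsal array, and cerebellar markers, whose sum was 34.8 to 55.0 ventrally and 66.1 to 119 dorsally (6 of 8 lower), moved with it. Medulla and pons markers moved the other way (6 of 8 higher ventrally, median difference 2.97). The part of either list in the difference of Syt2 was not tested. Stx3 was lower by 0.67, Syt16 by 0.66, Syt1 by 0.56, Syt12 by 0.47, Syt13 by 0.46 and Snap25 by 0.43. The other Stx3 probes gave -0.65, -0.06 (adjusted p = 0.908) and -0.97, so the size depended on the probe. Stx4a (0.70, but -0.02 with its second probe, adjusted p = 0.983), Vamp5 (0.68), Vamp1 (0.57, adjusted p = 0.0448, and no longer passing without any 1 of 22 arrays), Stx2 (0.37) and Snap23 (0.36) were higher ventrally. Syt15 also passed, but it was below background in both zones and no fold is given for it. Together 6 genes were higher and 10 lower (30.8%), against 14.2% of all probes (8.44% higher, 5.78% lower). The 4 and 4 arrays did not overlap for 19 genes (36.5%), against 22.0% of probes. Without H2 alone, 10 genes passed, and Snap91, Stx2, Syt1, Syt12, Syt16 and Vamp1 were lost. Cortical markers were lower (7 of 7, sum 7.01 to 9.27 against 11.9 to 23.0) and oligodendrocyte markers higher (7 of 7, sum 214 to 266 against 68.1 to 199) ventrally. Their part in these differences was not tested.

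Across the sagittal plane, Vamp1 read 21.3 to 30.6 in the 6 arrays of the midline zone (pairs 4 to 6, median 23.1) and 5.90 to 13.6 in the 8 lateral arrays (pairs 1, 2, 8 and 9, median 10.9). Its zones stayed apart, and the difference was 1.25 (SE 0.15, adjusted p = 2.45e-07). Stx1a was the reverse, at 2.96 to 3.57 medially (median 3.25) and 6.26 to 11.9 laterally (median 7.48), a difference of -1.33 (SE 0.11, adjusted p = 1.33e-10). Cplx3 (-1.22), Syt17 (-0.90), Syt16 (-0.89), Cplx2 (-0.60), Syn2 (-0.50), Syt1 (-0.42, adjusted p = 0.0501 without S9) and Snap25 (-0.20, adjusted p of at most 0.110 without S5, S8, S9, So2, So5 or So7) were lower at the midline, while Rims3 (0.80), Syt9 (0.77), Syt2 (0.51), Stx4a (0.49, but 0.10 with its second probe, adjusted p = 0.473) and Snap23 (0.27) were higher. Syt2 read 0.237 to 0.288 at the midline, within its lateral range of 0.0619 to 0.319, and it was below the lowest midline array in S1 (0.0619), S9 (0.121), So2 (0.110) and So10 (0.199) but not in S2 (0.315), S8 (0.271), So3 (0.319) or So9 (0.263). Without S1 or S9 it no longer passed (adjusted p of at most 0.0587). In total 6 genes were higher and 8 lower (26.9%), against 19.6% of all probes (10.5% higher, 9.09% lower), and 11 (21.2%) had no overlap, against 9.17% of probes. This count depended on the model more than the others, and shares over all probes were computed for the main fit alone. With the mouse as a block 27 genes passed (12 higher, 15 lower), with the slide as a random block 23 (8 higher, 15 lower), and with scaling to the median, which moved the median of all probes from 0.00 to -0.10, 21 (5 higher, 16 lower). Oligodendrocyte markers were higher at the midline (7 of 7, sum 254 to 339 against 83.6 to 217) and cortical markers lower (6 of 7, sum 7.26 to 9.47 against 9.18 to 21.4). Medulla and pons (6 of 8), hypothalamic (6 of 7) and olfactory bulb markers (7 of 7) were also higher, and microglial markers (4 of 6) lower. Of 9 neuron markers, 3 were higher and 2 lower caudally, and 1 and 4 in the olfactory zone. Ventrally 0 were higher and 1 lower, and at the midline 2 and 1. The part of these lists was not tested.

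**Figure D3:**
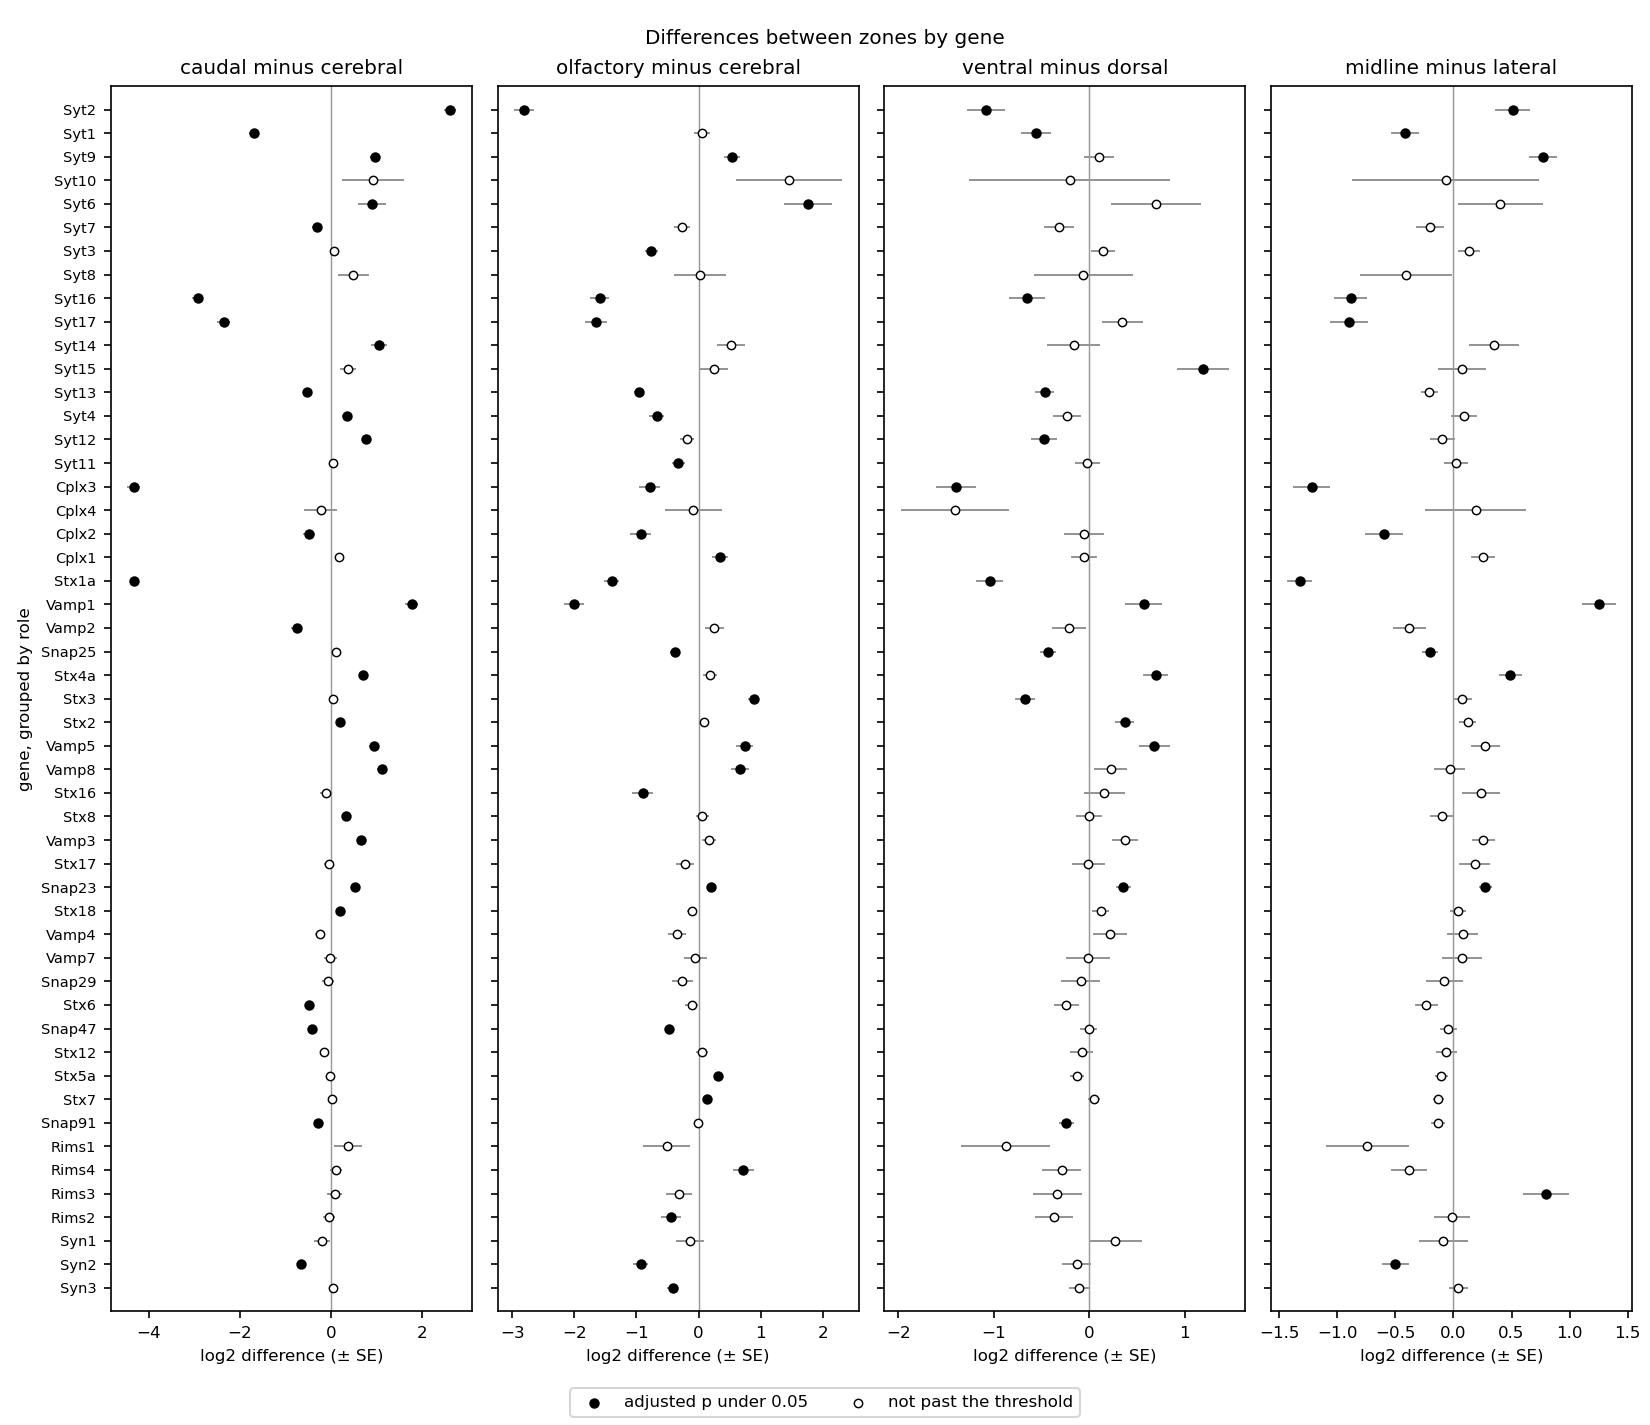
Log2 difference with its standard error by gene in the 4 comparisons, filled where the adjusted p was under 0.05. Stx1a, Cplx3 and Syt16 are on the negative side of all 4 panels, and Vamp1 and Syt2 are positive in the caudal and midline panels and negative in the olfactory one.

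Paralogues were then set against each other as the change between zones of the log2 ratio of 2 genes on the same array, in which the scaling of that array drops out. Where both genes were measured on every array this change is the difference of their own differences, and it can pass when only 1 of them moves, as with Syt2 in the olfactory zone, so it shows unequal change and not an exchange. Of 13 ratios in 4 comparisons, 33 of 52 tests passed: 10 ratios between the caudal and cerebral zones (7 up, 3 down), 10 between the olfactory and cerebral zones (4 up, 6 down), 5 between ventral and dorsal (2 up, 3 down) and 8 between midline and lateral (6 up, 2 down). Single probes passed in 52.5, 38.5, 14.2 and 19.6% of cases in these comparisons. No share was computed over ratios of other probes, so the counts have no background of their own. Syt1, Cplx2 and Syn2 each enter more than 1 ratio, so the tests are not separate. Syt2/Syt1, given as a multiple of its median over the 61 fractions, was 6.37 to 15.0 caudally, 0.338 to 0.862 in the cerebral zone and 0.0374 to 0.154 in the olfactory zone, so that the 3 zones did not overlap. It changed by 4.30 (SE 0.17) between the caudal and cerebral zones, by -2.86 (SE 0.21) between the olfactory and cerebral zones, and by 0.93 (SE 0.20, adjusted p = 0.0007) toward the midline. Between dorsal and ventral it changed by -0.53 (adjusted p = 0.204, and 0.0417 with the mouse as a block). Its lowest fractions were C13 and Co15, where Syt2 was not well above background.

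Vamp1/Vamp2 followed the same order, at 2.39 to 5.31 times its median in 5 caudal arrays, 0.320 to 1.38 in 11 cerebral arrays and 0.0973 to 0.157 in the olfactory zone. It changed by 2.35 (SE 0.16), -2.31 (SE 0.17), 0.78 ventrally (SE 0.20, adjusted p = 0.0085) and 1.63 toward the midline (SE 0.16), passing in all 4 comparisons, the ventral one not without H1 (adjusted p = 0.0594). Over the means of the 28 pairs, Vamp1 and Vamp2 correlated with r = -0.84, Syt2 and Syt1 with r = -0.50, and Syt9 and Syt1 with r = -0.57, as descriptions of pairs that share mice and arrays. The gene of the set most like Syt2 was Vamp1 (r = 0.83), that most like Syt1 was Cplx3 (r = 0.97), and that most like Stx1a was Syt16 (r = 0.98).

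Cplx1/Cplx2 was up by 0.66 caudally, 1.44 in the olfactory zone and 0.85 at the midline, with a ventral difference of 0.00 (adjusted p = 0.998). Cplx3/Cplx2 was down by 3.85 caudally with the brighter probe of Cplx3. Snap25/Snap23, the synaptic member over its widespread counterpart, was down in all 4 comparisons, by 0.42, 0.59, 0.79 and 0.48. Syt9/Syt1 was up in all 4, by 2.66, 0.48, 0.66 and 1.19, although the olfactory change did not pass without C12, Co8, Co11, Co12 or Co15 (adjusted p of at most 0.228), nor the ventral change without H1, H2, H5, H6, Ho6 or Ho7 (adjusted p of at most 0.245). Rims3/Rims4 was down by 1.04 in the olfactory zone and up by 1.18 at the midline. Rims1/Rims2 and Syt6/Syt10 passed in no comparison, and both hold a gene that differed strongly between mice.

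**Figure D4:**
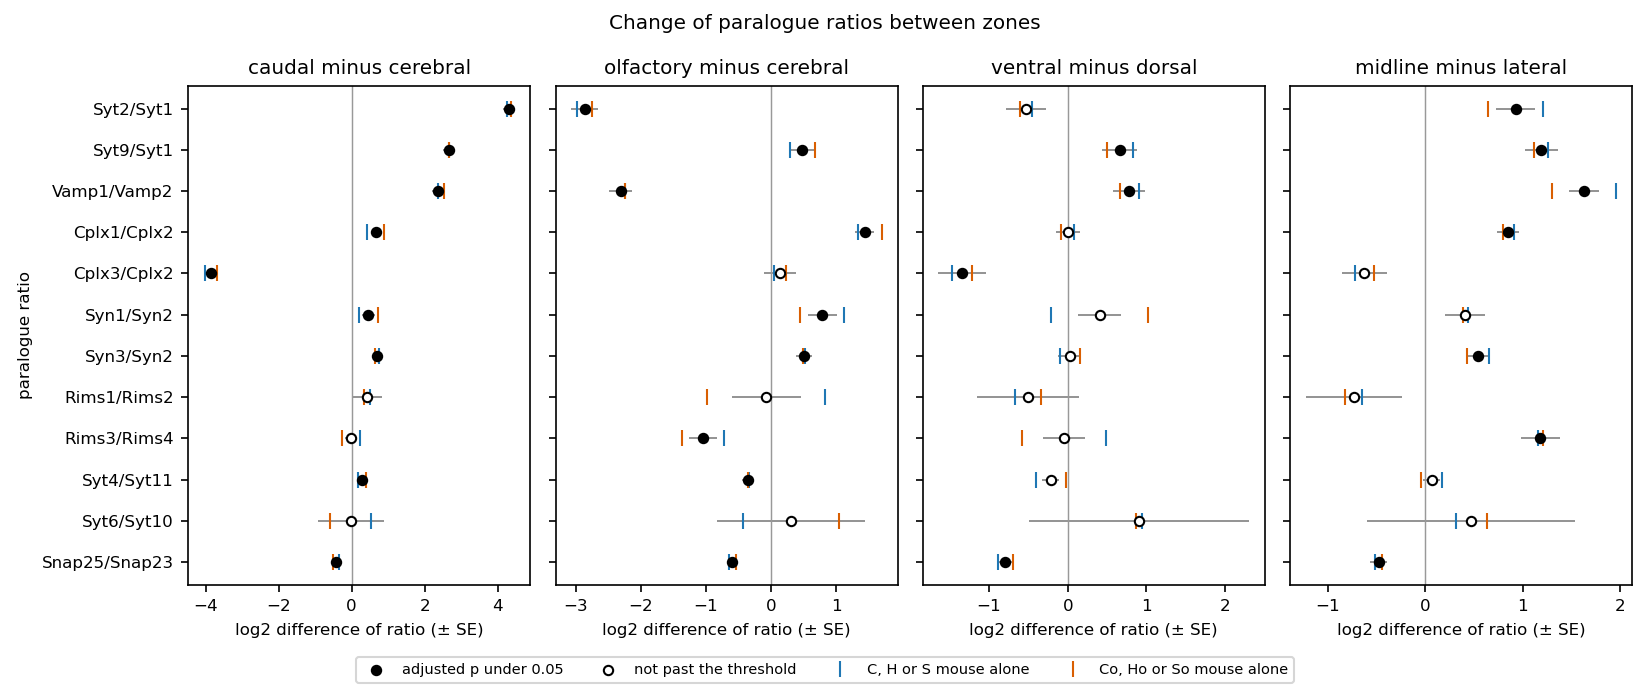
Change of paralogue ratios (log2, with standard error) in the 4 comparisons, filled where the adjusted p was under 0.05, with the change in each mouse of the plane as a tick. Syt2/Syt1 and Vamp1/Vamp2 are positive caudally and negative in the olfactory zone in both mice, and the ticks of Rims1/Rims2 and Syt6/Syt10 lie on opposite sides of 0 in the olfactory panel.

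Other genes of the release pathway, a list of 42 of which 32 were detected, were described by their counts beside those over all probes. They include the priming and docking factors, the active zone scaffolds and the vesicle proteins outside the families above. Of the 32, 28 varied over the pairs, where 61.2% of probes did. Caudally 5 were higher and 20 lower (median -0.44), against 31.4% and 21.0% of probes, and in the olfactory zone 3 and 19 (median -0.40), against 18.3% and 20.2%. Ventrally 2 were higher and 9 lower (median -0.18), against 8.44% and 5.78%, and at the midline 1 and 15 (median -0.23), against 10.5% and 9.09%. The active zone scaffolds Erc2 (-2.18) and Erc1 (1.55) differed in opposite directions caudally. Doc2a (-1.52), Sv2b (-1.46) and Rab3b (-1.38) were also lower there. In the olfactory zone Doc2b (-2.73), a calcium sensor of spontaneous release, Rph3a (-1.74) and Rab27b (-1.40) were lower, and the vesicle protein Synpr (2.23) and Rab3b (1.65) were higher. The scaffolds Pclo and Bsn were lower ventrally (-0.66 and -0.63) and at the midline (-0.59 and -0.61).

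Between the mice of a plane, 34 of the 52 genes differed (65.4%), against 63.1% of all probes. Co differed from C in 31 genes, where 53.5% of probes passed, So from S in 13 (30.1%), and Ho from H in 0 by limma (5.35%), with 7 at an unadjusted p under 0.05. Mouse and scan day coincided for C1 to C12 and Co and for most of S and So, so they cannot be told apart there, whereas H and Ho were scanned on 1 day. Syt10, a sensor of peptide release, had relative signals of 0.0534 to 0.146 in C1 to C12, 0.846 in C13 and 0.540 to 1.47 in Co, a difference of 3.03 between Co and C. C13 came from the same mouse and another scan day, and for Syt10 it lay with the other mice. It is also the most anterior fraction of C, so position and scan day cannot be told apart for it. By limma's moderated test the olfactory minus cerebral difference of Syt10 was 1.46 (adjusted p = 0.197). The second probe of Syt10, well above background on 48 arrays, gave 2.54 (adjusted p = 0.000392). Rims1, the main RIM of the active zone, read 0.0474 to 0.145 in C1 to C12, 0.168 in C13 and 0.0979 to 0.407 in Co. Vamp7, an endosomal synaptobrevin, behaved otherwise, at 3.93 to 5.08 in C1 to C12, 4.16 in C13 and 2.44 to 3.08 in Co, so that C13 lay with its own mouse.

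Vamp2 differed between mice (F = 102), Co being above C by 0.51, and it varied over the pairs (F = 3.20). These F values come from different fits, the second without the mouse, and cannot be ranked. Within a mouse Vamp2 spanned 1.54 on the log2 scale in C and 1.64 in Co, with an r of 0.99 between them. Along the coronal axis, the shape of the profile was alike in C and Co for most genes, with a median r of 0.83 over the 52 and an r over 0.8 for 28. Horizontally the median was 0.76 and sagittally 0.43, and Syn1 had an r of -0.71 between C and Co and between H and Ho. All genes called in the 4 comparisons had the same sign in both mice.

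**Figure D5:**
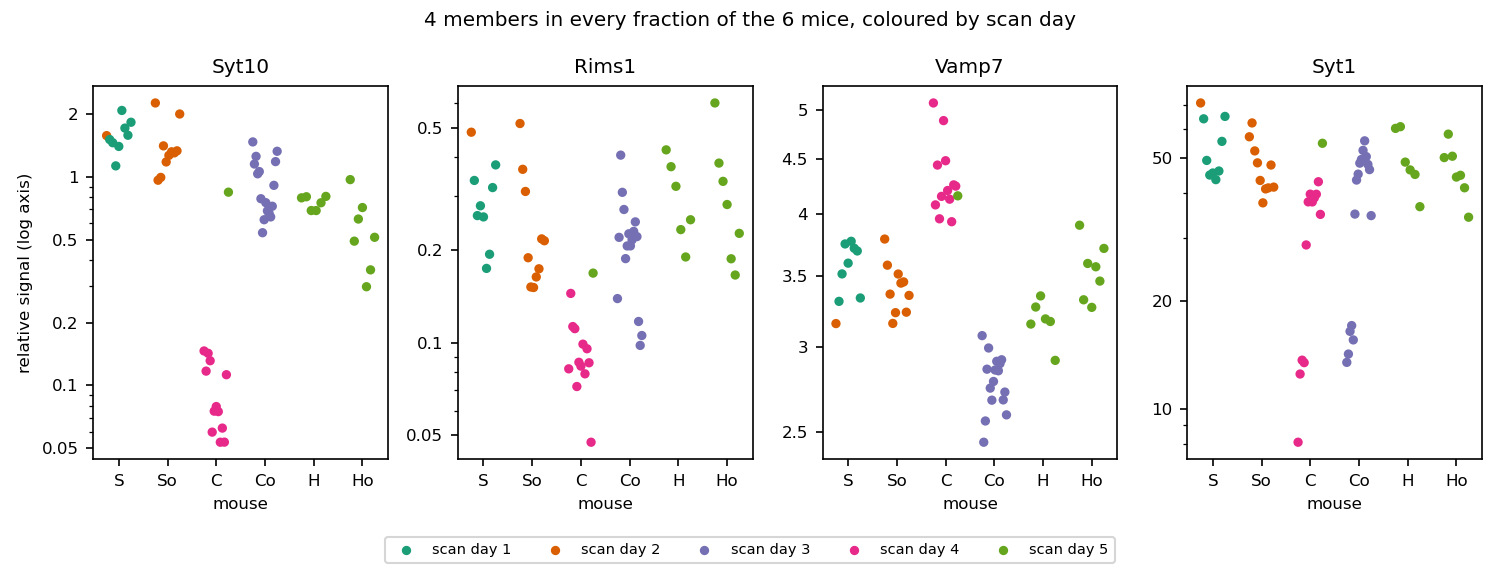
Relative signal (log axis) of Syt10, Rims1, Vamp7 and Syt1 in every fraction of the 6 mice, coloured by scan day. Syt10 and Rims1 are low in the C1 to C12 arrays of scan day 4, the single C array of scan day 5 is among the other mice for Syt10, and the low Syt1 values are the caudal fractions of C and Co.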

How the data were processed

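RNA of 61 brain fractions was labelled with Cy3 and hybridised to 1-colour arrays, and the authors extracted spots with Agilent Feature Extraction 9.1 per the labels. The deposited scanner files hold the processed intensity per spot. The authors' table of 36558 probes, normalized per array in GeneSpring, is on a linear scale of signal and served as an alternative. Log2 of the processed signal minus each array's 75th percentile was used, replicate spots were averaged, outlier spots (11 values of these genes) were left out, and probes well above background on at least 1 array were kept (36573 of 41174). Of 41174 probes, 22951 were named through RefSeq. Genes were fitted with limma 3.58.1 in R 4.3.3 (1 mean per pair of fractions, 28 pairs, 28 residual degrees of freedom) with Benjamini-Hochberg adjustment over all probes and ratios, and the scripts were tested on simulated data. Pairs were chosen by the study on these arrays. The p-values rest on 1 spread per gene between paired fractions, pooled over the 28 pairs of all planes. Each comparison of zones draws on 2 mice and takes neighbouring fractions of a brain as separate pairs, though these are not independent. Such p-values do not measure the spread between mice in general. The named genes were mainly up to 12 with the largest difference past the threshold per comparison, the 6 widest and narrowest spans, both genes of each ratio, and 5 other pathway genes per comparison. Members, lists and comparisons were chosen with earlier results of these data known. Alternatives were the scaling, the authors' table, background correction, the filter, the replicate block, the slide, the pairing, the threshold, the fit without moderation, the second probe, the zone borders and each array left out. The number of arrays limits the precision. Values of 1 gene and of a ratio that holds it are not reported here, though the counts in each comparison include them.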

Additional observations from a re-analysis of the deposited data

Results flagged for a closer look

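The genes were tested for a fraction standing apart in the series of 6 to 10 fractions (204 profiles), by the gap between the extreme fraction and its nearest neighbour divided by the range of the series. In 17 profiles (8.33%) the gap passed Dixon's critical value, where chance gives about 5%, and fractions of a series come from different places in 1 brain. In S, Cplx1 was lowest in S1 (relative signal 28.2, gap 0.505), as was Syt3 (0.654, gap 0.506), S1 being the fraction scanned on another day than the rest of S. Also in S, Rims3 was highest in S5 (0.132, gap 0.501), Snap47 in S9 (42.6, gap 0.522), Cplx4 in S6 (gap 0.520) and Syt8 in S7 (gap 0.567). In So, Snap91 was highest in So2 (16.1, gap 0.595), Cplx4 in So1 (gap 0.582) and Syt8 in So9 (gap 0.830), while Rims2 was lowest in So10 (1.98, gap 0.478), Stx18 in So4 (5.38, gap 0.519) and Syt6 in So1 (gap 0.471). In H, Rims3 (0.0782, gap 0.799) and Cplx4 (0.0772, gap 0.820) were both highest in H1. In Ho, Syt14 was highest in Ho1 (0.0602, gap 0.635), Syt9 lowest in Ho1 (0.219, gap 0.660) and Stx5a lowest in Ho7 (1.45, gap 0.614). Cplx4 and Syt8 were below background on most arrays.

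For 2 genes the zones did not overlap in either mouse of a plane but lay in opposite order, and this difference was not tested. Syn1 was -0.32 ventrally against dorsally in H and 0.87 in Ho. Syt11 was 0.33 caudally against the cerebral zone in C and -0.25 in Co.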

How the results depend on the processing

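The replicate block, fitting the mouse within its plane beside the pair, raised the midline count from 14 to 27 genes and kept the others within 1.5 times, at 51 genes that varied over the pairs, 34 caudally, 37 in the olfactory zone, 23 ventrally and 36 ratios. The numbers mark fractions of different mice. With the slide as a random block (correlation 0.541) the midline count was 23 and the count that differed between mice 17 in place of 34. With fractions of the same number paired in place of the study's pairs, 23 genes varied over the pairs in place of 37. Scaling each array to its median, and the authors' table, gave 28, 26, 15 and 21 genes in the 4 comparisons. Shares over all probes were computed for the main fit alone, so the counts of the alternatives in this section have no background beside them. Without each array in turn, 34 to 38 genes varied over the pairs, 26 to 29 passed caudally, 24 to 29 in the olfactory zone, 10 (without H2) to 17 ventrally, 12 to 17 at the midline, 30 to 34 ratios and 32 to 38 between mice. With the second brightest probe, the caudal difference of Syt14 was -0.23, the caudal change of Cplx3/Cplx2 was 0.063 and that of Syn1/Syn2 was -0.35, and the ventral difference of Stx4a was -0.022, each the reverse of the value with the brightest probe. The cause was not tested. No fraction was measured on more than 1 array, and Cplx4, Syt8 and Syt15 lay below background on most arrays, which limits what can be said of them.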
